A study of Mus musculus with 4 samples.

Results

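The 9 genes described here are the receptors Lgr4, Lgr5 and Lgr6, their secreted ligands Rspo1, Rspo2, Rspo3 and Rspo4, and the ubiquitin ligases Rnf43 and Znrf3. They were taken by symbol from the 32285 genes listed for every section, and all 9 were found. On the mouse genome (GRCm38.p6) Lgr4 (chr2:109917647-110014257) and Rspo4 lie on chromosome 2, Lgr5 (chr10:115450314-115587780) and Rspo3 (chr10:29453106-29535867) on chromosome 10, Rnf43 (chr11:87663087-87735539) and Znrf3 (chr11:5276329-5444847) on chromosome 11, Lgr6 (chr1:134983300-135105374) on chromosome 1, Rspo1 (chr4:124986401-125009102) on chromosome 4 and Rspo2 (chr15:43020788-43171594) on chromosome 15. The measurements are spatial transcriptomes of 4 sections of untreated WT (wild-type) mouse tissue, cut at 8 µm and captured on Visium slides, whose barcoded spots each collect RNA from the small region of mixed cells above them. An E13.5 section and an E16.5 section (embryonic days) were labelled as mouse embryo with embryonic esophagus in their titles, and both P0 sections (day of birth) were labelled as esophagus. No strain, sex, parent animal or block of tissue is named for a section, so how many animals the 2 P0 sections come from is unknown. The p-values measure only the spread between these sections, with a variance partly shared over genes.

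R-spondins are secreted proteins that amplify Wnt signalling. Rnf43 and Znrf3 sit in the cell membrane and mark the Frizzled receptors of Wnt ligands for removal, and an R-spondin that bridges an Lgr receptor and one of these ligases takes the ligase off the surface, so that Frizzled stays. Lgr5, Axin2 and the ligases themselves are known targets of the pathway, Lgr5 marks stem cells of the intestine and hair follicle, and the title of the study places Lgr5 in stem or progenitor cells of the developing esophagus. The question addressed below is where receptors, ligands and ligases were detected, and whether ligand and receptor lay in the same or adjoining spots.

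After spots under 500 unique molecular identifiers (UMIs, counts of captured RNA molecules) were left out, 3220, 3588, 363 and 264 spots remained at E13.5, E16.5 and in P0 replicates 1 and 2, with medians of 25465 to 29289 UMIs per spot. Levels are counts per 1000000 UMIs (CPM) from UMIs summed over spots, with 95% Poisson intervals. A percentage of spots has a 95% binomial interval by the exact method of Clopper and Pearson, and both kinds cover counting error only. The P0 sections held 10591 and 10130 CPM of Krt13, a keratin of stratified esophageal epithelium, against 0.284 and 173 CPM in the E13.5 and E16.5 sections. The embryo sections also held lung, heart, nerve and skeletal tissue, and the E13.5 section held liver. P0 replicate 2 held 51.1 CPM of the liver gene Alb against 7.6 in replicate 1, 224 at E13.5 and 2.58 at E16.5. The part of this in any result was not tested. A bulk level cannot tell fewer cells of a type from less RNA per cell, and this holds for every sum of spots below.

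Lgr4 is the broadly expressed receptor of the family. Its level was 34.2 CPM at E13.5, 24.98 at E16.5, and 50.2 and 59.8 in the P0 replicates (55.0 ± 6.80, SD, n = 2), with UMIs in 58.4%, 47.5%, 67.8% and 67.8% of spots. Lgr4 was thus higher in both P0 sections than in either embryo section, with no overlap of the counting intervals.

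Lgr5 was present at 5.24 CPM (517 UMIs) at E13.5, 3.73 CPM (395 UMIs) at E16.5, and 6.63 and 8.02 CPM (68 and 59 UMIs) at P0. It had at least 1 UMI in 11.5%, 9.42%, 15.98% and 16.7% of spots. The E13.5 level lies inside the counting interval of P0 replicate 1 (5.15 to 8.40 CPM) and below that of replicate 2 (6.11 to 10.3), so the order of E13.5 and P0 is not settled for Lgr5, and E16.5 was lowest.

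Lgr6, which marks stem cells of the skin and hair follicle, was highest at E16.5. It was at 3.27 CPM at E13.5 and 16.2 CPM at E16.5, and at 5.17 and 2.58 CPM in the P0 replicates. The E16.5 level was 4.96 times that at E13.5 (95% interval 4.40 to 5.60). P0 replicate 1 was 2.0 times replicate 2 (1.16 to 3.58), so the replicates differed beyond counting error, and the E13.5 level lay between them.

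Between the embryo sections Rspo1, Rspo2 and Rspo3 went the other way from Lgr6. So did the receptors Lgr4 (E16.5 over E13.5 ratio 0.731, 0.694 to 0.769) and Lgr5 (0.712, 0.623 to 0.813). Rspo1 was at 7.73 CPM at E13.5 and 3.21 at E16.5 (ratio 0.415, 0.364 to 0.473), and at 3.80 and 2.45 CPM in the P0 replicates. Rspo2 was at 6.19 and 3.80 CPM in the embryo sections (ratio 0.613, 0.539 to 0.697) and at 0.975 and 0.408 CPM at P0, from 10 and 3 UMIs. Rspo3 was at 13.1 and 5.64 CPM in the embryo sections (ratio 0.432, 0.391 to 0.476) and at 4.39 and 3.13 CPM at P0. For all 3 of these ligands E13.5 was the highest section. The E16.5 level of Rspo1 lay inside the counting intervals of both P0 sections and that of Rspo3 inside the interval of replicate 1, whereas Rspo2 was lower at P0 than in either embryo section.

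Rspo4, known for its role in nail growth, was close to undetected. It had 13 UMIs at E13.5, 23 at E16.5, 1 in P0 replicate 1 and 0 in P0 replicate 2, where 0 counts allow a level of up to 0.408 CPM (3 counts). Its interval of the ratio between the embryo sections runs from 0.801 to 3.54, so no order can be read.

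The ligases were higher at P0. Rnf43 was at 1.91 and 1.74 CPM in the embryo sections and at 11.2 and 12.4 CPM at P0 (11.8 ± 0.822, SD, n = 2). Znrf3 was at 8.72 and 8.17 CPM in the embryo sections and at 20.5 and 17.4 CPM at P0 (18.9 ± 2.17, SD, n = 2). Both ligases were higher in both P0 sections than in the embryo sections, and neither differed between E13.5 and E16.5 beyond counting error. The embryo sections hold many organs and the P0 sections mainly esophagus, so stage and tissue cannot be told apart in any of these orders, and with 1 section at each embryonic stage there is no replicate check.

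**Figure D1:**
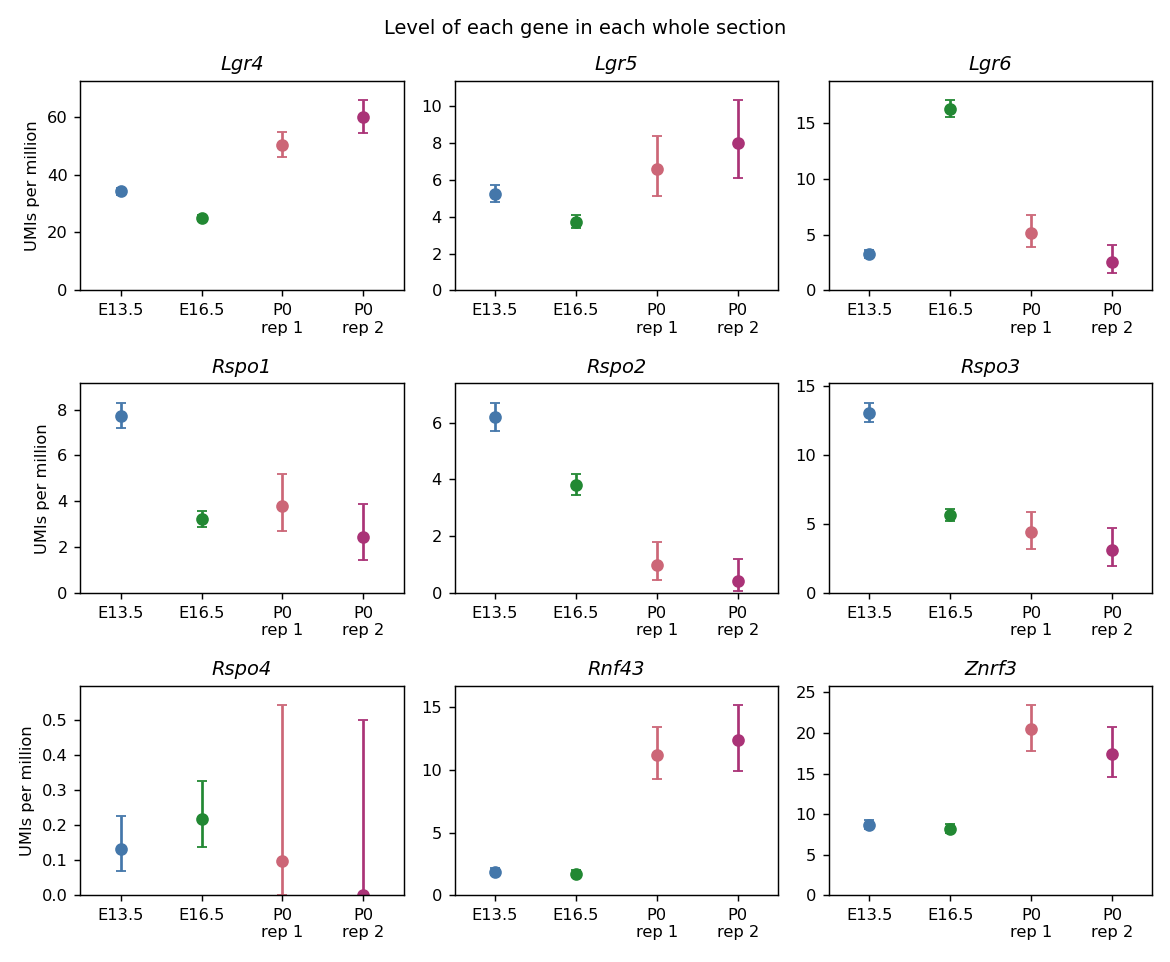
Level of each of the 9 genes in UMIs per 1000000, 1 panel per gene and 1 point per whole section, with 95% Poisson intervals as bars; each panel has its own scale from 0. Lgr6 peaks at E16.5 (16.2 CPM), Rspo1, Rspo2 and Rspo3 are highest at E13.5, and Lgr4, Rnf43 and Znrf3 are highest in both P0 sections.

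Spots were then assigned to regions by lists of marker genes: a spot was called rich in a tissue when it ranked among the highest 25% (P0) or 2% (embryo sections) of its section for that list, and a spot over several limits went to the list of its highest rank. Such spots still hold mixtures of cells. Lgr5 was highest in epithelium-rich spots at E13.5, at 45.1 CPM (62 UMIs in 59 spots, interval 34.5 to 57.8), and the next regions, rich in foregut mesenchyme or stroma, had 14.3 CPM each. At E16.5 stroma-rich spots had 19.6 CPM (13.7 to 27.3) and epithelium-rich spots 15.6 (9.97 to 23.1), which overlap. No Lgr5 UMI was counted in cartilage-rich spots at E13.5, nor in heart-rich or thymus-rich spots at E16.5.

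In the P0 sections the Lgr5 levels of the regions lay close together. Epithelium-rich spots had 7.98 and 8.56 CPM and spots rich in striated muscle 7.83 and 8.42 CPM in replicates 1 and 2. Endothelium-rich spots ranged from 6.47 to 14.1 CPM and smooth-muscle-rich spots from 6.7 to 1.5, from 4 UMIs and 1 UMI. The intervals of these regions overlap in each section, and the regions hold too few UMIs to order them.

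Lgr6 was highest in other tissues. At E13.5 no region of this division of spots passed 10.2 CPM. At E16.5 spots rich in brown fat had 55.0 CPM (201 UMIs, interval 47.7 to 63.2), cartilage-rich spots 51.7 (34.6 to 74.2) and spots rich in epidermis 28.3 (19.1 to 40.3), while spots rich in striated muscle had 2.38. At P0 Lgr6 was highest in endothelium-rich (16.2 and 7.03 CPM) and smooth-muscle-rich spots (13.4 and 7.50), and lowest in epithelium-rich spots, with 1.14 CPM in replicate 1 and no UMI in replicate 2.

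Lgr4 was detected in every region of every section. Its highest embryonic values were 98.8 CPM in cartilage-rich and 66.8 in epithelium-rich spots at E13.5, and 57.0 in epithelium-rich spots at E16.5. The lowest were blood-rich (11.5) and liver-rich spots (12.8) at E13.5 and spots rich in distal lung (8.61) at E16.5.

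At E13.5 the ligands Rspo1, Rspo2 and Rspo3 were highest in regions of mesenchymal markers. Rspo1 at E13.5 was highest in spots rich in bone markers (50.7 CPM, 40.7 to 62.5), followed by foregut mesenchyme (25.2) and stroma (17.4). Rspo3 at E13.5 was highest in foregut-mesenchyme-rich spots (50.4, 38.5 to 64.9), followed by spots rich in bone markers (40.4) and stroma (30.4). Rspo2 at E13.5 was highest in stroma-rich spots (28.5, 20.9 to 38.1), with smooth-muscle-rich spots at 13.3 CPM. The 3 ligands thus peaked in different regions of the same section, although all were above their section level in stroma-rich spots. Neither Rspo1 nor Rspo2 had a UMI in heart-rich spots at E13.5.

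At E16.5 the highest region levels of these ligands were lower than at E13.5. Rspo1 was at 13.3 CPM in foregut-mesenchyme-rich and 12.3 in distal-lung-rich spots, and Rspo3 reached 12.5 in spots rich in bone markers and 11.2 in stroma-rich spots. Rspo2 had its highest level in spots rich in sensory ganglion markers (17.4 CPM, 11.3 to 25.7). At P0 smooth-muscle-rich spots had the highest Rspo3 in both replicates, 26.8 and 16.501 CPM, against 0.285 and 0.713 in epithelium-rich spots. Rspo1 was also highest in smooth-muscle-rich spots of both replicates, at 15.1 and 9.0 CPM. Spots rich in enteric nerve markers, described only in replicate 1, had 22.6 CPM of Rspo3, 11.3 of Rspo1 and 7.07 of Rspo2, from 16, 8 and 5 UMIs.

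The highest Rnf43 values of the embryo sections were 13.8 and 14.9 CPM, both in epithelium-rich spots, followed by distal lung at both stages (9.49 and 12.3), and thymus-rich spots at E16.5 had 10.1 CPM. No Rnf43 UMI was counted in heart-rich spots at E13.5, or in spots rich in bone, brown fat, striated muscle or neural progenitor markers at E16.5. At P0 it was at 11.7 and 13.6 CPM in epithelium-rich and 13.7 and 9.27 in striated-muscle-rich spots, which overlap. Znrf3 was spread more evenly, from 5.10 to 18.3 CPM over the regions at E13.5 and from 4.65 to 24.0 at E16.5, where the epithelium-rich spots were highest.

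**Figure D2:**
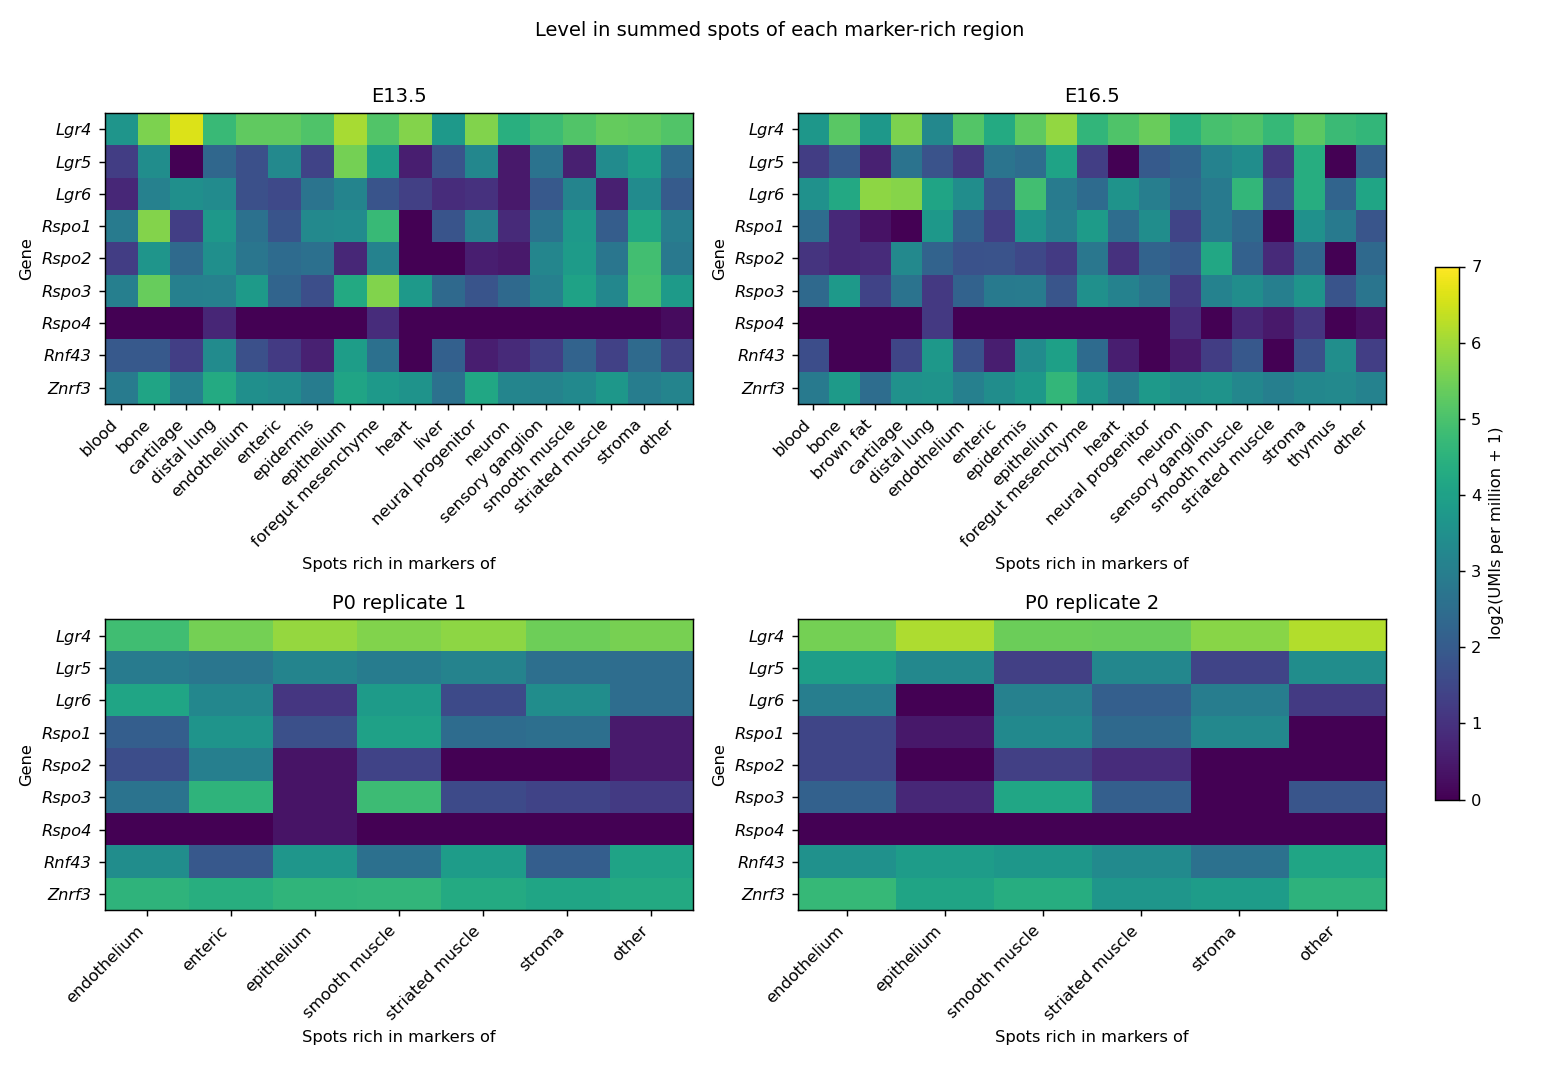
Each panel is a section; rows are the 9 genes, columns the regions of spots rich in the named markers, and colour is log2(CPM + 1) over the summed spots. Read along a row, Lgr5 at E13.5 is brightest in epithelium-rich spots (45.1 CPM), Lgr6 at E16.5 in brown-fat-rich and cartilage-rich spots, and Rspo3 at P0 in smooth-muscle-rich spots.

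By Pearson correlation of log2(CPM + 1) over the 46 region sums of the 4 sections, which share libraries and depth within a section, the genes most like each member were named by rule. Rnf43 had the closest match, the epithelial splicing regulator Esrp1 (r = 0.87), followed by Ap1m2 (0.86) and Kdf1 (0.85). For Lgr5 they were the Wnt ligand Wnt6 (0.65), the activin antagonist Fst (0.62) and Rab32 (0.61), and for Lgr6 Ltbp2 (0.70), the lipase gene Lipe (0.70) and Htra1 (0.70). Rspo1 was most like the secreted Wnt antagonist Sfrp2 (0.68), Rspo2 most like the touch channel gene Piezo2 (0.73), and Rspo3 most like the mesenchymal transcription factor genes Prrx1 (0.69) and Prrx2 (0.68). Lgr4 was most like Pdxdc1 (0.74) and Znrf3 most like Nacc1 (0.77). Over the 35 embryo sums alone these were 0.71 and 0.56, and Rnf43 with Esrp1 was at 0.84. Among the members themselves the closest pairs over all sums were Rnf43 with Znrf3 (0.55), Rspo2 with Rspo3 (0.55) and Lgr4 with Znrf3 (0.54). Values over the embryo sums alone were not computed for these pairs.

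The difference between spot classes was tested next, on counts summed per section in epithelium-rich, muscle-rich (smooth and striated markers together), stroma-rich and other spots (only these lists compete here, so the epithelium-rich class at E13.5 holds 64 spots in place of the 59 above), with the section as a block (edgeR quasi-likelihood test, Benjamini-Hochberg adjustment over all genes tested at 0.05). In the P0 sections 12222 genes were tested, among them 7 of the 9 members. Rspo2 and Rspo4 fell under the count filter. The P0 fit had 3 residual and a median of 27.6 prior degrees of freedom, so its small p-values rest largely on a variance shared over genes. Relative to muscle-rich spots, Lgr4 and Rnf43 were higher and Lgr6, Rspo1 and Rspo3 lower in the epithelium-rich spots of P0. That is 5 of 7 members, where 55.7% of all genes tested passed (28% higher, 27.7% lower), so the count itself is near the background.

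Lgr4 in the P0 replicates was at 59.1 and 68.1 CPM in epithelium-rich spots, at 43.6 and 33.9 in muscle-rich spots, and at 38.1 and 49.8 where stroma markers were high. Both epithelium-rich values were above these 4, and spots in none of the classes had 48.3 and 69.2 CPM, in replicate 2 as high as the epithelium-rich spots. The log2 difference was 0.96 ± 0.17 (SE) from muscle (edgeR adjusted p = 9.91e-06) and 0.97 ± 0.17 from stroma (edgeR adjusted p = 2.19e-05). The counting intervals of epithelium-rich spots overlapped those of muscle in replicate 1 and those of stroma in replicate 2. The fit left out the region markers and rescaled the sums (TMM), so its differences are not ratios of the printed CPM, here and below. The fitted difference from stroma was larger than the CPM of either replicate give.

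Rnf43 had 11.6 and 13.55 CPM in the epithelium-rich sums, against 3.68 and 6.79 for muscle and 3.97 and 5.09 for stroma. Both epithelium-rich values were again above these 4, and spots in none of these classes were higher still, at 16.7 and 17.5 CPM. The counting intervals of epithelium-rich spots overlapped those of stroma in both replicates and those of muscle in replicate 2. The log2 difference was 1.56 ± 0.37 from muscle (edgeR adjusted p = 0.000643) and 1.90 ± 0.42 from stroma (edgeR adjusted p = 0.000321). With muscle-rich spots chosen by striated markers alone it was 0.40 (edgeR adjusted p = 0.315), which ends the call against muscle.

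Lgr6 was at 1.35 CPM (5 UMIs) and 0 in epithelium-rich spots, 9.82 and 6.03 in muscle-rich and 10.3 and 5.09 in stroma-rich spots. The epithelium-rich values lay below all others. The log2 difference was −3.09 ± 0.66 from muscle (edgeR adjusted p = 0.000184) and −2.90 ± 0.70 from stroma (edgeR adjusted p = 0.000917), and since replicate 2 had no UMI its size depends on the prior count.

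Rspo3 was at 0.270 and 0.695 CPM in epithelium-rich spots (1 and 2 UMIs), 17.8 and 9.05 in muscle-rich and 3.97 and 3.05 in stroma-rich spots. The values of the 3 classes did not overlap. The counting interval of stroma-rich spots overlapped that of epithelium in both replicates and that of muscle in replicate 2. The log2 difference from muscle was −4.49 ± 0.63 (edgeR adjusted p = 3.46e-07), and from stroma −2.41 ± 0.93 (edgeR adjusted p = 0.0313; 0.289 with smooth muscle markers alone, 0.0772 with wider classes and 0.0811 by the DESeq2 Wald test). Rspo3 was the member called between muscle and stroma, at 2.08 ± 0.55 (edgeR adjusted p = 0.00708), 1 of 7 members where 17.3% of all genes passed (9.97% higher, 7.36% lower). With striated markers alone this turned to −0.29 (edgeR adjusted p = 0.819), and the DESeq2 Wald test did not call it.

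Rspo1 was at 2.16 and 0.347 CPM in epithelium-rich spots, 12.3 and 6.79 in muscle-rich and 3.97 and 7.12 in stroma-rich spots. The epithelium-rich values were the lowest of these 3 classes. Spots in none of the classes had 1.64 and 0.461 CPM (6 UMIs and 1 UMI), in replicate 1 below the epithelium-rich spots. The log2 difference from muscle was −2.54 ± 0.60 (edgeR adjusted p = 0.000538; 0.0854 with striated markers alone), and that from stroma, −1.54 ± 0.73, did not pass (edgeR adjusted p = 0.0816). Against stroma 4 of 7 members passed, Lgr4 and Rnf43 higher and Lgr6 and Rspo3 lower in epithelium, beside 49.1% of all genes (27% higher, 22.1% lower).

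Lgr5 did not pass in the P0 sections. It had 7.82 and 8.34 CPM in the epithelium-rich sums, 6.75 and 3.02 in those rich in muscle, and 6.35 and 6.10 for stroma, with a log2 difference of 0.94 ± 0.45 from muscle (edgeR adjusted p = 0.0775). It passed with smooth muscle markers alone (1.33, edgeR adjusted p = 0.0439) and without a count filter (0.98, edgeR adjusted p = 0.0496). Znrf3 had 0.57 ± 0.26 (edgeR adjusted p = 0.0569), from 23.5 and 15.6 CPM in epithelium-rich against 18.4 and 13.6 in muscle-rich spots, where the values of the classes overlap.

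Other marker lists moved with these classes. Summed markers of enteric nerve cells were at 17 and 6.60 CPM in epithelium-rich spots of the P0 replicates, 320 and 228 in muscle-rich and 129 and 107 in stroma-rich spots; 7 of the 8 had UMIs in the muscle-rich and stroma-rich sums, and Chat was at 0. Summed endothelial markers (7 of 7 with UMIs) were at 59.6 and 43.1, 289 and 256, and 629 and 592 CPM in the same order. The classes were mixed as well. Muscle-rich spots held 13499 and 11421 CPM of stroma markers, against 3289 and 3102 in epithelium-rich spots. Stroma-rich spots held 12561 and 7954 CPM of smooth muscle markers, against 18265 and 12029 in muscle-rich spots. The median depth was 39325 and 38936.5 UMIs per epithelium-rich spot against 20274 and 24786.5 per muscle-rich spot. The part of other cell types and of depth in the differences of Lgr6 and the ligands was not tested.

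Leaving out a P0 section leaves no residual, so those values carry no test. They kept the direction of all 5 called members and moved the sizes: Lgr6 was at −6.41 without replicate 1 and −2.52 without replicate 2, Rspo1 at −3.81 and −2.18, Rspo3 at −3.33 and −5.53, Lgr4 at 1.26 and 0.74, and Rnf43 at 1.25 and 1.94. With muscle-rich spots chosen by striated markers alone, the differences of Lgr6 and Rspo3 were −2.26 and −2.73 and those of Lgr5 and Znrf3 0.17 and 0.47.

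**Figure D3:**
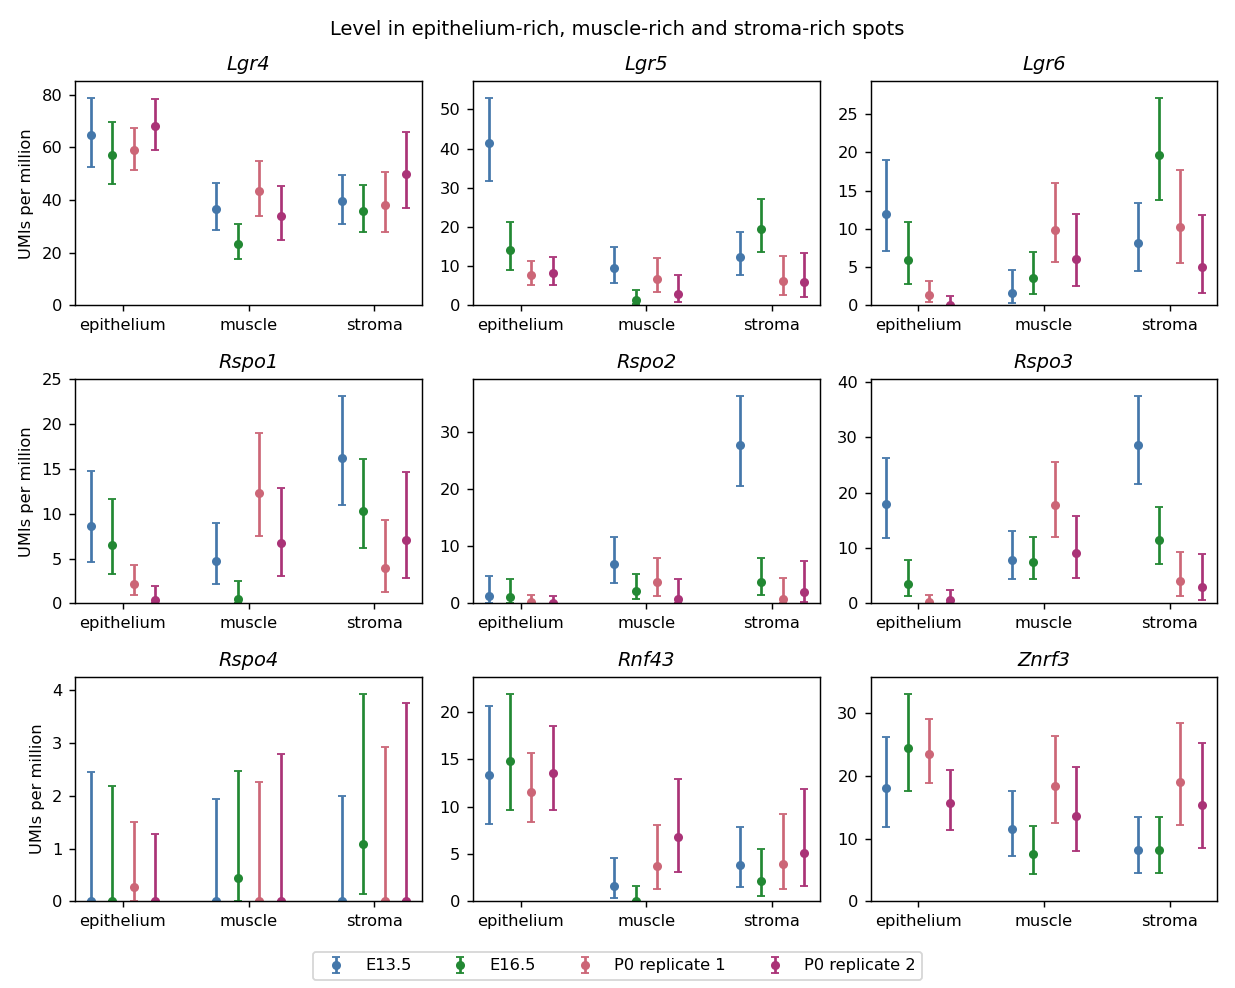
CPM of each gene in epithelium-rich, muscle-rich and stroma-rich spots, 1 point per section with 95% Poisson intervals as bars; each panel starts at 0. At P0 Lgr4 (59.1 and 68.1 CPM) and Rnf43 lie above and Lgr6, Rspo1 and Rspo3 below in epithelium-rich spots, whereas in the embryo sections Lgr6 and Rspo1 are lower in muscle-rich than in epithelium-rich spots. The bars of muscle-rich and epithelium-rich spots overlap for Lgr6 at E16.5 and for Rspo1 at E13.5.

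Promoter sequences are shown for the members that were higher (Lgr4, Rnf43) or lower (Lgr6, Rspo1) together in P0 epithelium-rich spots and have a RefSeq entry. Each is the 300 bases from 250 before to 50 after the annotated start (GRCm38.p6), written 5′ to 3′ on the gene's strand. Capitals mark the GC box (GGGCGG, or CCGCCC on the other strand), the one of 3 motifs searched that was found in the Lgr6 window and in no other shown.
Lgr4 (chr2:109917397-109917696, plus strand): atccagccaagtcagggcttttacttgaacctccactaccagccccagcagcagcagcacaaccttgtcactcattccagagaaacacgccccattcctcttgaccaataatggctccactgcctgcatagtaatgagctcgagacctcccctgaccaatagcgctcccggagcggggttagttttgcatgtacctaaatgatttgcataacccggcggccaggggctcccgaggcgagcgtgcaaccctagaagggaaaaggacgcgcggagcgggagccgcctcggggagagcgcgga
Rnf43 (chr11:87662837-87663136, plus strand): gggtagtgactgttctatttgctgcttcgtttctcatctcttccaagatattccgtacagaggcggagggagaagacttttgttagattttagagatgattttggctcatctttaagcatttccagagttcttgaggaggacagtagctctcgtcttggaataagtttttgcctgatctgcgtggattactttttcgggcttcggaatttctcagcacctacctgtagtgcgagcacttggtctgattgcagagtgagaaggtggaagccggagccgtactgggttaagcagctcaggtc
Lgr6 (chr1:135105227-135105526, minus strand): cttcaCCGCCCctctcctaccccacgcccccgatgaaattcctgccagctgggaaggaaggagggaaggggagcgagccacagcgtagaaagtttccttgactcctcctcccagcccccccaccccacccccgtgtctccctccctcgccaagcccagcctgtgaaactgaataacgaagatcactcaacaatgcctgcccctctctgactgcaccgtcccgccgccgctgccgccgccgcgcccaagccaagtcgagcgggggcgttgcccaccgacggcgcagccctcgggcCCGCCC
Rspo1 (chr4:124986180-124986479, plus strand): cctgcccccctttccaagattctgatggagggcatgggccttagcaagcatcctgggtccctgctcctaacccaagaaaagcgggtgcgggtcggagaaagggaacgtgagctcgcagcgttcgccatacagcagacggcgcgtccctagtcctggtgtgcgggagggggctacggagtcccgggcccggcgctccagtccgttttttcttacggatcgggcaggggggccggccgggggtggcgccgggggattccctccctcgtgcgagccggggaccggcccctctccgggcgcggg
Of all 32851 promoter windows of this length 35.7% hold a GC box. The other motifs were the TCF/LEF core ATCAAAG (or CTTTGAT), the site read by the transcription factors at the end of the Wnt pathway, which 3.73% of all windows hold, and the TATA box TATAAA (or TTTATA), which 13.6% hold. None of the 4 windows shown held either, and the motifs do not overlap each other. Base composition differed, with 46.7% G and C in the Rnf43 window, 58.3% in Lgr4, 67.7% in Lgr6 and 69.0% in Rspo1. Windows of 5 of the 9 members were matched, the fifth being Rspo4. Rnf43 has another annotated start with a window of 44.3% G and C (chr11:87699647-87699946), which holds none of the 3 motifs.

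Over all 4 sections, 12603 genes were tested in the same way and fewer members passed. Between epithelium and muscle these were Lgr4 (0.84 ± 0.22, edgeR adjusted p = 0.0124) and Rnf43 (2.66 ± 0.76, edgeR adjusted p = 0.0189), both higher in epithelium, or 2 of 7 beside 29.9% of all genes (15.4% higher). Lgr4 in epithelium-rich spots was at 64.7 CPM at E13.5 and 57.1 at E16.5, against 36.8 and 23.5 in muscle-rich spots, the same order as at P0. Rnf43 was at 13.3 and 14.9 CPM against 1.58 (3 UMIs) and 0. Between epithelium and stroma Lgr4 (0.73 ± 0.22, edgeR adjusted p = 0.0318) and Znrf3 (0.91 ± 0.27, edgeR adjusted p = 0.0319) were called, or 2 of 7 beside 21.9% (10.6% higher). Between muscle and stroma 0 of 7 members were called by edgeR, and 0 had an unadjusted p under 0.05, beside 8.18% of all genes. Without the section as a block edgeR called 0 members in any of the 3 contrasts (3, 2 and 0 had an unadjusted p under 0.05), where DESeq2 with the block called 4, 3 and 0. The Lgr4 call against muscle was lost without either P0 section (edgeR adjusted p = 0.0553 and 0.0654) and that of Rnf43 without E16.5 (0.0630). Against stroma, the Lgr4 call held only without E16.5 among the fits that left out 1 section, and the Znrf3 call in none of them (edgeR adjusted p from 0.0504 to 0.125).

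Lgr5 and Znrf3 were higher in epithelium-rich than muscle-rich sums in 4 of 4 sections and did not pass. Lgr5 was at 41.3 against 9.46 CPM at E13.5, 14.3 against 1.33 at E16.5, 7.82 against 6.75 and 8.34 against 3.02 at P0 (1.62 ± 0.64, edgeR adjusted p = 0.0731). Znrf3 differed by 0.70 ± 0.27 (edgeR adjusted p = 0.0658), and Rspo2, which was under the count filter, was lower in epithelium-rich sums in 4 of 4 sections on at most 2 UMIs each.

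Lgr6, Rspo1 and Rspo3 did not keep 1 direction over the sections. In epithelium-rich against muscle-rich spots Lgr6 was at 12 against 1.58 CPM at E13.5 and 5.94 against 3.55 at E16.5, and Rspo1 at 8.67 against 4.73 and 6.54 against 0.443. Both were thus higher in epithelium-rich spots of both embryo sections and lower in those of both P0 sections. The counting intervals overlapped for Lgr6 at E16.5 (10 against 8 UMIs) and for Rspo1 at E13.5 (13 against 9 UMIs), so those directions are within counting error. Rspo3 was at 18.0 against 7.89 CPM at E13.5 and 3.57 against 7.54 at E16.5, so the embryo sections disagreed, with overlapping intervals in both.

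A term that lets the P0 sections differ from the embryo sections was tested with edgeR, chosen after these values were seen. It was called for Lgr6 (P0 minus embryo −4.81 ± 1.33 on the log2 scale, edgeR adjusted p = 0.0302), Rspo1 (−4.02 ± 0.96, edgeR adjusted p = 0.0149) and Rspo3 (−4.50 ± 0.95, edgeR adjusted p = 0.00828), that is 3 of 7 members beside 15.6% of all genes. Against stroma 0 of 7 members were called by edgeR, with 0 at an unadjusted p under 0.05, beside 8.51%. Muscle-rich spots of the embryo sections were mainly striated (17315 and 67161 CPM of striated against 1411 and 827 of smooth muscle markers), and those at P0 held 5398 and 16362 against 18265 and 12029. Stroma markers were at 4848 and 6908 CPM in muscle-rich against 5493 and 9616 in epithelium-rich spots of the embryo sections. At P0 they were at 13499 and 11421 against 3289 and 3102, and their part in the term was not tested. With smooth muscle markers alone the embryo sections had −0.61 for Lgr6 and −0.10 for Rspo1, and the term was called for Rspo3 only (−4.48, edgeR adjusted p = 0.0116; Lgr6 0.197 and Rspo1 0.0751). With striated markers alone none of these 3 was called (edgeR adjusted p from 0.0680 to 0.121), and Rnf43 was (−3.62, edgeR adjusted p = 0.0220). Without P0 replicate 1, and without P0 replicate 2, no member was called by edgeR (3 each had an unadjusted p under 0.05, and 10 and 43 of all genes were called), with differences of −11.5 and −4.20 for Lgr6, −5.38 and −3.65 for Rspo1 and −3.23 and −5.59 for Rspo3; without either embryo section all 3 were called.

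Other genes of the Wnt pathway gave the setting of these members in P0 epithelium-rich against muscle-rich spots. They came from lists of ligands, receptors, inhibitors, components inside the cell (cytoplasmic and nuclear) and targets. Each count stands beside 28% of all genes higher and 27.7% lower in this contrast (55.7% called), and several lists lie near these shares. Of 10 Wnt ligands tested, 5 were higher and 2 lower: Wnt4 (3.45 ± 0.18) and Wnt7b (3.44 ± 0.31) were higher and Wnt5a (−2.84 ± 0.22) lower. Of 14 receptors 3 were higher, among them Fzd6 (2.01 ± 0.19) and Fzd10 (2.17 ± 0.30), and 5 lower, among them Fzd4 (−3.10 ± 0.30) and Ror2 (−2.77 ± 0.30). Of 8 inhibitors 1 was higher and 7 lower, among them the secreted Frizzled decoys Sfrp2 (−2.13 ± 0.15) and Sfrp1 (−1.93 ± 0.18). Of 12 components inside the cell 4 were higher and 1 was lower. Among the higher were Ctnnb1, which encodes beta-catenin (1.01 ± 0.11), and Gsk3b (1.41 ± 0.14). Of 6 targets 0 were higher and 3 lower by edgeR: Tnfrsf19 (−2.42 ± 0.18), Nkd1 (−2.08 ± 0.16) and Axin2 (−1.11 ± 0.34). The median log2 difference was −2.03 over the inhibitors and −0.88 over the targets, beside 0.000933 over all genes.

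Co-occurrence was read as the share of spots with a UMI of a receptor among spots with and without an R-spondin UMI. Spots are not replicates, so these shares carry counting intervals and no test. They depend on depth, so each ratio was also computed within 5 classes of spots by depth and combined (Mantel-Haenszel ratio), and after every spot was thinned to 10000 UMIs.

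An Lgr5 UMI was present in 14.0% of R-spondin spots against 9.83% of the others at E13.5, in 13% against 8.06% at E16.5, in 25.4% against 13.9% in P0 replicate 1 and in 5.13% (2 of 39 spots) against 18.7% in P0 replicate 2. The intervals did not overlap in the embryo sections, and they overlapped in both P0 sections. Within depth classes the ratios were 1.30, 1.51, 1.70 and 0.290. After thinning, the embryo ratios were 1.53 and 1.48, and the P0 ratios, 1.03 and 0.925, rested on 2 spots and 1 spot.

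The split between the P0 replicates came from Rspo1 and Rspo3. In replicate 1 an Lgr5 UMI was found in 36.4% of 33 Rspo1 spots (20.4% to 54.9%) and in 16.2% of 37 Rspo3 spots, and in replicate 2 in 1 of 18 Rspo1 spots and in 0 of 22 Rspo3 spots, with an interval from 0% to 15.4%. The 2 sections therefore give no common P0 value for the overlap of Lgr5 with its ligands. In the embryo sections the ratio was above 1 for each of Rspo1 (1.38 and 1.56), Rspo2 (1.23 and 1.76) and Rspo3 (1.35 and 1.20).

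**Figure D4:**
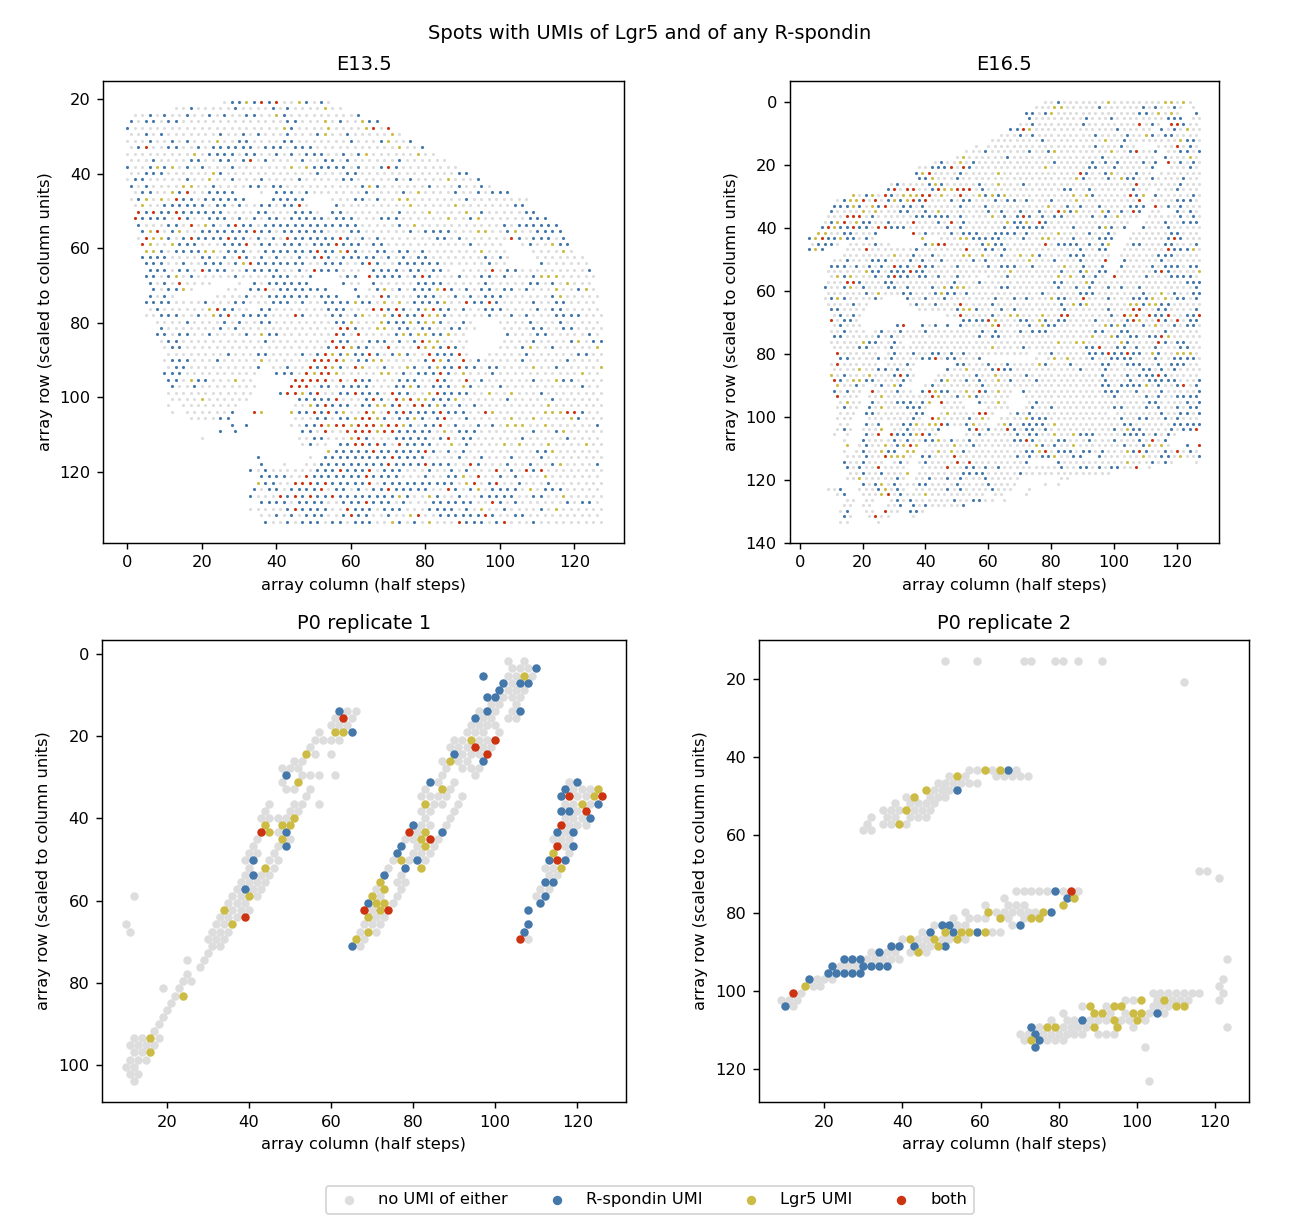
Spots of each section on the array grid, coloured by whether they hold a UMI of Lgr5, of any R-spondin, of both or of neither. Spots with both number 181 of 3220 at E13.5, 128 of 3588 at E16.5, 17 of 363 in P0 replicate 1 and 2 of 264 in P0 replicate 2, and the P0 sections consist of separate strips of tissue.

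Lgr6 and Lgr4 differed from Lgr5. Lgr6 had a UMI in 10.4% of R-spondin spots against 6.55% of the others at E13.5, in 27.3% against 26.5% at E16.5, and at P0 in 16.4% against 11.1% and 10.3% against 5.78%. The share was clearly apart at E13.5 and overlapped in the other 3 sections. With Rspo3 alone the P0 shares were 21.6% against 11% and 13.6% against 5.79%, on 8 and 3 spots with both.

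Lgr4 had a UMI in 60.6% of R-spondin spots against 56.9% of the others at E13.5 and in 52.6% against 45.6% at E16.5, where R-spondin spots were also deeper (median 30213 against 25287 UMIs), and the ratio within depth classes was 1.03 and 1.06. At P0 it was 68.7% against 67.6% and 51.3% against 70.7%. The shares were apart by counting error at E16.5 and overlapped in the other sections, with ratios within depth classes of 0.966 and 0.752 at P0.

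Rnf43 was found in 7.4% of R-spondin spots against 3.95% of the others at E13.5 and in 4.99% against 4.49% at E16.5, and at P0 in 20.9% against 26.4% and 15.4% against 29.3%. The shares were apart at E13.5 and overlapped in the other sections. Znrf3 was in 25.2% against 20.7%, 23.5% against 19.4%, 38.8% against 39.9% and 41.0% against 35.6%, with ratios of 0.982 to 1.24 within depth classes.

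**Figure D5:**
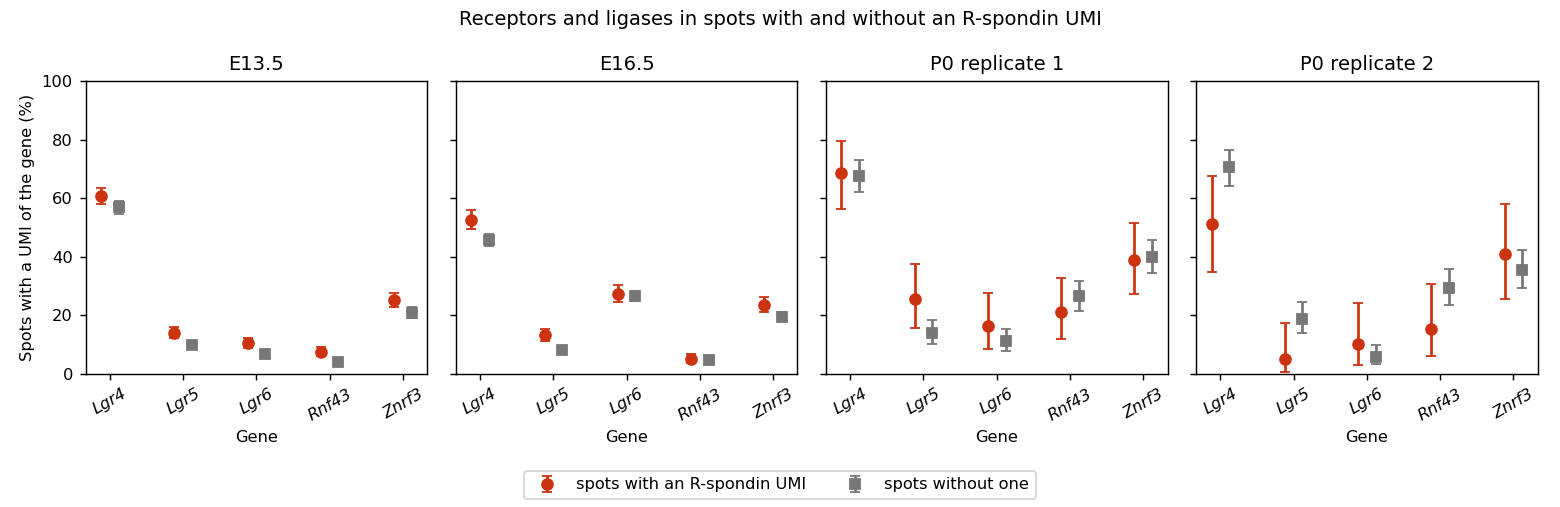
Percent of spots with a UMI of each receptor or ligase among spots with any R-spondin UMI (circles) and without (squares), 1 panel per section, with 95% exact binomial intervals as bars. Lgr5 is apart in both embryo sections (14.0% against 9.83% and 13% against 8.06%), and in the P0 sections the intervals of every gene shown overlap.

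Ligands shared spots with each other. Rspo1 had a UMI in 22.5% of Rspo3 spots against 12.2% of the others at E13.5, in 9.11% against 7.29% at E16.5, and at P0 in 27.0% against 7.06% and 18.2% against 5.79%. The share was higher in Rspo3 spots of all 4 sections, apart by counting error at E13.5 and in P0 replicate 1. The ratios within depth classes were 1.74, 1.13, 3.68 and 3.33. Rspo2 was in 19.3% of Rspo3 spots against 10.5% at E13.5, in 13.6% against 9.15% at E16.5, and at P0 had 3 spots with both in replicate 1 and 0 in replicate 2. Among receptors and ligases, Lgr4 was in 81.5% of Rnf43 spots against 63.1% and in 87.5% against 60.4% at P0. Rnf43 spots were deeper (medians of 32650 against 22696 and 31190 against 23716.5 UMIs), and within depth classes these ratios were 1.09 and 1.23.

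Spots adjoining on the hexagonal grid were examined in the same way. At least 1 neighbour of a spot with Lgr5 held an R-spondin UMI in 90.3% of cases at E13.5, against 81.0% for spots without Lgr5, in 84.9% against 75.4% at E16.5, in 63.8% against 44.3% in P0 replicate 1 and in 36.4% against 34.5% in P0 replicate 2. The first 3 sections were higher beyond their counting intervals and the fourth was not. After thinning the ratio stayed above 1 in the embryo sections (1.26 and 1.19) and was below 1 at P0 (0.666 and 0.571, on 4 of 19 and 2 of 19 spots). Neighbouring spots share tissue, so their counts are not independent of each other. These shares also depend on the number of neighbours. Its mean per spot was 5.74 at E13.5, 5.64 at E16.5, and 3.80 and 3.42 in the P0 replicates. The part of this in the shares was not tested.

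Of the ligands, Rspo3 lay beside Lgr5 spots in 78.4% against 62.8% at E13.5, 60.9% against 48.4% at E16.5, 36.2% against 23.3% in P0 replicate 1 and 22.7% against 21.4% in replicate 2. Rspo1 lay beside them in 57.3% against 43.7%, 37.9% against 27.4%, 37.9% against 27.9% and 20.5% against 22.7%. Both ligands were apart by counting error in the embryo sections and overlapped at P0.

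Lgr6 spots had an R-spondin neighbour in 90.4% against 81.3% at E13.5, 73.0% against 77.6% at E16.5, and at P0 in 61.4% against 45.5% and 64.7% (11 of 17 spots) against 32.8%. The shares were apart by counting error in the embryo sections, in opposite directions, and overlapped at P0, where both sections had the higher share beside Lgr6. Rnf43 spots in P0 replicate 2 had an R-spondin neighbour in 18.1% against 41.1%, apart beyond counting error, and in replicate 1 in 44.6% against 48.3%.

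Tests over sections were made for the sums of spots with a ligand UMI against all others, and of spots without one that adjoined such a spot against the rest, with the section as a block. In Rspo1 spots edgeR called 0 of 14775 genes (0% of all tested, with 2186 at an unadjusted p under 0.05, and 256 called by the DESeq2 Wald test). In Rspo2 spots it called 0 of 15182 (0%, with 771 at an unadjusted p under 0.05, and 44 by DESeq2), and in Rspo3 spots 0 of 15338 (0%, with 1170, and 58 by DESeq2). The fit of Rspo2 spots left out P0 replicate 2 (3 spots with Rspo2) and had 9 such spots in P0 replicate 1. None of the members tested was called in these fits by edgeR or by DESeq2. Beside Rspo1, Rspo2 and Rspo3 spots edgeR again called 0 genes (0%, with 2278, 431 and 914 at an unadjusted p under 0.05, and 271, 0 and 18 called by DESeq2), and 0 members. Beside Rspo4 spots 33 of 14394 genes (0.229%, of which 0.0417% higher and 0.188% lower) were called and 0 of 8 members by edgeR, with 0 at an unadjusted p under 0.05 and 0 by DESeq2. This Rspo4 fit left out P0 replicate 2 and had 5 adjoining spots in P0 replicate 1.

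The members nearest to a call were other ligands. Rspo3 in Rspo1 spots against others was at 21.7 against 11.5 CPM at E13.5, 6.30 against 5.58 at E16.5, 11.4 against 3.66 in P0 replicate 1 and 8.57 against 2.76 in replicate 2. It was higher in 4 of 4 sections, by 0.81 ± 0.27 on the log2 scale, and failed the correction (edgeR adjusted p = 0.229, 0.0190 before adjustment). In spots adjoining Rspo1 spots it was at 17.5 against 7.75, 6.83 against 5.11, 7.31 against 2.24 and 6.12 against 1.85 CPM, higher in 4 of 4 sections by 1.01 ± 0.25 (edgeR adjusted p = 0.199, 0.00458 before adjustment).

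Lgr5 in spots adjoining Rspo3 spots was at 5.88 against 2.87 CPM at E13.5, 4.46 against 2.95 at E16.5, 9.08 against 5.93 in P0 replicate 1 and 11.7 against 8.15 in replicate 2. All 4 sections had more Lgr5 beside Rspo3 spots, by 0.62 ± 0.23 on the log2 scale, and this did not pass the correction (edgeR adjusted p = 0.844, 0.0292 before adjustment). Summed epithelial markers were at 208 against 124, 654 against 602, 10037 against 13054 and 5875 against 13473 CPM in the same spots. These markers were thus higher beside Rspo3 spots in both embryo sections and lower in both P0 sections. Their part in the Lgr5 difference was not tested. In the Rspo3 spots themselves Lgr5 was at 7.13 against 4.62, 3.96 against 3.69, 6.15 against 6.68 and 0 against 8.68 CPM, with a log2 difference of 0.0059 ± 0.40 (edgeR, 0.989 before adjustment). Lgr5 was thus higher in Rspo3 spots of both embryo sections and lower in those of both P0 sections.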

How the data were processed

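The data are whole-number UMI counts per gene and spot, deposited by the authors and written by Space Ranger 2.0.0 per the file headers, with mm10 as the build per the submitters' processing notes. The deposited counts carry no normalization, and all spots in the files are flagged as over tissue. Spots with at least 500 UMIs were kept, giving 7356008 to 105834164 UMIs per section. Spot barcodes shared between sections (24 to 2542 a pair) come from 1 set of array positions. The 9 members, the marker lists and the pathway lists were chosen with earlier results of these data known. Named genes were the members, up to 4 called genes per pathway list by smallest p, and the 3 genes most like each member.

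Counts were summed per section and spot class (region markers left out of calls) and tested with edgeR 4.0.16 (TMM, filterByExpr, quasi-likelihood test, section as block, Benjamini-Hochberg at 0.05 over all genes tested), with DESeq2 1.42.0 as an alternative. A standard error is the log2 difference over the root of its F statistic. The classes share the section they come from. R-spondin classes needed at least 5 spots per sum in at least 3 sections, which Rspo4 spots did not reach. The scripts were tested on simulated data. Alternatives were other class widths, UMI minimums, muscle markers, filters and normalizations, leaving out each section, and thinning. Coordinates are GRCm38.p6, as are the promoter windows from RefSeq.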

Additional observations from a re-analysis of the deposited data

Results flagged for a closer look

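The difference between epithelium-rich and muscle-rich spots ran in opposite directions in the embryo and the P0 sections for Lgr6, with a P0 minus embryo difference of −4.81 ± 1.33 on the log2 scale (edgeR adjusted p = 0.0302). It was higher in epithelium-rich spots in 2 of 2 embryo sections, with overlapping counting intervals at E16.5, and lower in 2 of 2 P0 sections. Rspo1 showed the same pattern of sections, with overlapping counting intervals at E13.5 and a difference of −4.02 ± 0.96 (edgeR adjusted p = 0.0149). Rspo3 differed by −4.50 ± 0.95 (edgeR adjusted p = 0.00828), with the embryo sections on both sides of 0. The term for this difference was chosen after the values were seen, and edgeR called none of the 3 without P0 replicate 1, without P0 replicate 2 or with striated muscle markers alone. With smooth muscle markers alone the embryo values of Lgr6 (−0.61) and Rspo1 (−0.10) had the sign of P0, and neither was called (edgeR adjusted p = 0.197 and 0.0751).

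In 6 of the comparisons of R-spondin spots, or of spots adjoining them, a member was higher in both embryo sections and lower in both P0 sections, and the difference between stages was not tested there. Rnf43 did so in Rspo1 spots (2 embryo sections at 3.20 and 2.14 against 1.68 and 1.70 CPM, P0 at 10.4 and 4.28 against 11.3 and 12.9; log2 difference over all sections 0.20), beside Rspo1 spots (0.30) and beside Rspo3 spots (−0.065). Lgr4 did so in Rspo1 spots (−0.18) and Rspo3 spots (−0.13), and Lgr5 in Rspo3 spots (0.0059). Opposite signs in 4 sections by this rule need no large difference in any of them. The rule was applied to Rspo1 and Rspo3 spots and to spots adjoining Rspo1, Rspo2 or Rspo3 spots, with 7 members tested in each fit. The share of all genes that meet it was not computed, so the 6 have no background beside them and are not read as a result about the members.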

How the results depend on the processing

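Directions of single members held in most settings. Of 359 alternative log2 differences, 294 kept their side of the threshold or, where no test was possible, lay within 1 SE of the main value. A further 37 lost a call, 10 gained one, 11 untested values moved by more than 1 SE and 7 reversed. The reversed ones were Lgr6 over 4 sections between epithelium and muscle (0.34 with wider classes, 0.50 with striated markers alone, 0.31 and 0.18 without P0 replicates 1 and 2, and −1.98 to 0.31 over the sections left out, against −0.54), Rspo1 there (0.14 with striated markers alone and 0.052 without P0 replicate 1, and −1.59 to 0.052 over the sections left out, against −0.83), and Rspo3 between muscle and stroma at P0 (−0.29 with striated markers alone). The cause was not tested.

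Counts of members called moved as follows. At P0, epithelium against muscle gave 3 with striated markers alone in place of 5, and muscle against stroma 0 in place of 1 with narrower classes, by the DESeq2 Wald test and with striated markers alone. Over 4 sections, epithelium against muscle (2) gave 1 with narrower classes and with striated markers alone, 4 by DESeq2, 4 with no low-count filter and 1 to 3 with a section left out, the fewest without P0 replicate 1 or 2. Epithelium against stroma (2) gave 1 with wider classes, 4 with no filter and 0 to 2 with a section left out, with 0 without P0 replicate 2. Both main calls against stroma were higher in epithelium. The 1 call with wider classes, without E13.5 and without P0 replicate 1 was lower, so neither main call was kept there. Without E16.5 the 2 calls were 1 higher and 1 lower. Against muscle, wider classes and leaving out E16.5 also gave 1 higher and 1 lower. The class-by-stage term (3 against muscle, 0 against stroma) gave 1 with smooth or striated markers alone, and 0 to 4 against muscle and 0 to 1 against stroma with a section left out. Beside Rspo4 spots 1 member was called without E13.5 (Lgr6, a log2 difference of −1.64) and another without E16.5 (Lgr5, 1.30), each with 1 residual degree of freedom, a range of 0 to 1.

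With no replicate block (the section left out of the design), 0 members were called in either 4-section epithelial contrast, where 890 and 595 of all genes passed in place of 3769 and 2759; at P0 the counts of 5, 4 and 1 members did not move. No other call of a count of members changed without the block. Counts over all genes also moved by over 1.5 times: by DESeq2, 3920 in place of 5995 (P0 epithelium against stroma) and 851 in place of 2119 (P0 muscle against stroma, 1250 with smooth markers alone). Over 4 sections, epithelium against muscle fell from 3769 to 2512 with striated markers alone and to 1881 and 1643 without P0 replicates 1 and 2, and epithelium against stroma from 2759 to 998 and 947. Muscle against stroma fell from 1031 to 30 with no replicate block, 28 with smooth markers alone and 317 to 639 with a section left out. The class-by-stage term went from 1971 against muscle to 10 to 3299, and from 1072 against stroma to 0 to 2474, with a section left out, and against muscle to 1259 with smooth and 1005 with striated markers alone. The background shares beside the members move with these counts. With no low-count filter 474, 186 and 103 genes were called in Rspo1, Rspo2 and Rspo3 spots, in place of 0, and no member among them.

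The shares of spots depend on depth. For any receptor with any R-spondin in a spot, the ratios of 1.09, 1.12, 1.01 and 0.742 became 1.16 and 1.01 at E13.5 with 10000 and 5000 UMIs per spot, 1.03 at E16.5 and 0.427 in P0 replicate 2 with 10000, and 0.789 in P0 replicate 1 with 5000. For neighbours they became 1.03, 1.002 and 1.04 at E13.5, E16.5 and in P0 replicate 1 within 2 steps, and 0.995 and 0.733 in the P0 replicates with 10000 UMIs. Of 311 alternative spot ratios 82 fell on the other side of 1, and of 192 neighbour ratios 38. All 18 alternative ratios between the embryo sections stayed inside their intervals. The P0 shares rest on few spots with both genes, and 166, 450, 12 and 17 spots were too shallow to thin to 10000.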
